A study of Mus musculus with 12 samples.

Results

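Liver RNA of wild-type mice was compared between ZT20 and ZT8, that is 20 and 8 h after lights on (zeitgeber time), in the dark phase and in the light phase. The comparison took 6 of the 12 libraries of the series, 3 livers at each time, chosen by the genotype and time labels alone, and all genes with enough reads for a test, 14488 of 38926 gene symbols. The wild-type mice were males of 12 weeks on a mixed 129Ola/C57BL6 background, kept in 12 h of light and 12 h of darkness with free access to food. The other 6 libraries came from *Rev-erbα-/-* mice of that background, age and housing, whose *Nr1d1* gene, encoding the clock repressor REV-ERBα, is disrupted, again with 3 livers at ZT8 and 3 at ZT20. They served to set the wild-type change beside the change in the knockout. They also entered the filter, the scaling and the estimate of the spread, which were made over all 12 libraries. Each library was made from poly(A) RNA of a whole liver and sequenced, so that fewer cells of a type and less RNA per cell cannot be told apart. With 1 time point in each phase the samples give a difference between 2 times, not a rhythm. The mixed background means that the mice of a group need not carry the same alleles, and the sources do not say which mice were littermates.

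Between 19212079 and 24233775 reads were counted on genes per wild-type liver, and 3 counts correspond to 0.119 to 0.153 CPM (counts scaled to a common library size), taken as the smallest level a library can show. Every pair of replicates differed by more than counting noise. The 3 ZT20 livers lay close together in a principal component analysis (35.4 to 39.7 on the first component, which held 65.7% of the variance), whereas the 3 ZT8 livers spread from −22.5 to −50.1. Mouse 1 at ZT8 stood apart from mice 2 and 3 on the second component (38.0 against −2.66 and −23.7). The acute phase and metallothionein transcripts named below and the major urinary protein transcript *Mup17* were higher in ZT8 mice 2 and 3 than in mouse 1. Their values are given per mouse. Alignments to more than 1 place numbered 1.76, 2.89 and 3.28 per counted read at ZT8 and 1.56 to 1.67 at ZT20, and their part in the results was not tested. Summed hepatocyte markers were at 93500, 77900 and 72700 CPM at ZT8 and at 112000 to 123000 at ZT20, and of the exocrine pancreas markers, 6 of 10 were at 0 in all 6 livers. Summed Kupffer cell markers were at 460, 602 and 712 CPM at ZT8 and at 402, 453 and 500 at ZT20, values that overlap. Summed markers of cholangiocytes (38.0 to 94.8 CPM at ZT8 and 42.1 to 44.0 at ZT20), endothelial cells (547 to 569 and 553 to 669), stellate cells (306 to 352 and 273 to 339), lymphocytes (13.6 to 16.3 and 14.8 to 19.3) and neutrophils (3.42 to 5.85 and 3.58 to 11.1) overlapped as well. Taken singly, 2 of 5 tested cholangiocyte markers (40%, median log2 fold change 0.91) and 1 of 11 endothelial markers were higher at ZT20 by the test described below. By that test 1 of 9 stellate cell markers was higher at ZT8, and no lymphocyte or neutrophil marker changed.

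The mammalian clock is a feedback loop of transcription factors. BMAL1 (encoded by *Arntl*) pairs with CLOCK or NPAS2 and drives genes with E-box promoter elements, among them the *Per*, *Cry* and *Rev-erb* genes, whose products then repress this pair or its genes. REV-ERB repressors and ROR activators compete for a further element, the RORE, and the PAR bZIP factors DBP, TEF and HLF and their antagonist NFIL3 share the D-box. In the liver this loop runs beside daily cycles of feeding, hormones and body temperature, and the transcripts of many metabolic enzymes change over the day.

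Of the 14488 genes, 4018 (27.7%) were called different between ZT20 and ZT8. A call means an adjusted p of under 0.05 by the quasi-likelihood test of edgeR, fitted over all 12 libraries with Benjamini-Hochberg adjustment. They divided almost evenly, with 2005 genes (13.8%) higher at ZT20 and 2013 (13.9%) higher at ZT8, and the median over all genes was a log2 fold change of −0.000206. Most changes were small: the median change was 1.46-fold for the genes higher at ZT20 and 1.48-fold for those higher at ZT8, and 54.2% and 51.8% of them changed by under 1.5-fold. At least a 2-fold change was found for 445 genes higher at ZT20 and for 462 higher at ZT8, and at least a 4-fold change for 132 and 144. Values of the 3 mice at ZT20 did not overlap with those of the 3 mice at ZT8 for 6132 genes (42.3% of those tested), among them 1954 and 1925 of the called genes. Calls were more frequent among abundant transcripts, from 12.4% of genes under 1 CPM to 40.8% of genes at 100 CPM or more. Without ZT8 mice 2 and 3, which leaves a lone ZT8 liver, 1795 genes were called, 885 of them higher at ZT20. For a single gene, an exact permutation test of 3 livers against 3 can reach 0.1 at the lowest, and the calls therefore come from the fit across all genes.

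All 7 tested members of the list of clock activators and their regulators were called, 5 of them higher at ZT20 (among them *Arntl*, *Npas2*, *Clock* and *Rora*) and 2 higher at ZT8 (*Nr1d1* and *Nr1d2*), with a median log2 fold change of 1.31. *Arntl* (mm10 chromosome 7, 113207465 to 113314126) was at 0.796, 0.448 and 0.712 CPM at ZT8 and 44.5, 45.2 and 43.0 CPM at ZT20. No ZT8 liver came near any ZT20 liver, and the log2 fold change was 6.05 ± 0.13, adjusted p = 1.6e-13. *Npas2*, the partner that can stand in for CLOCK, had 1 or 2 reads in each ZT8 liver and was at 6.84, 6.55 and 4.03 CPM at ZT20, at least 37.9-fold above the limit that 3 counts set. *Clock* changed less, from 32.3, 26.7 and 29.8 CPM at ZT8 to 71.1, 75.3 and 73.3 at ZT20 (log2 fold change 1.31 ± 0.09, adjusted p = 5.1e-08).

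**Figure D1:**
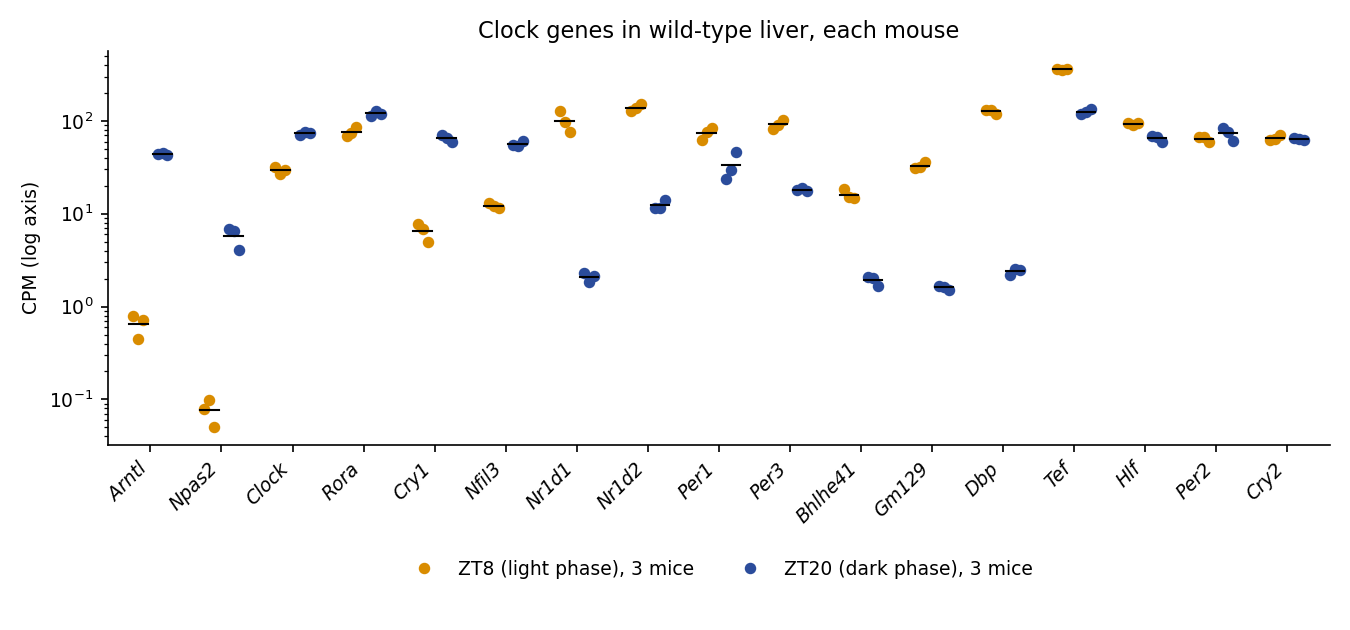
Values of clock genes in the 6 wild-type livers, in CPM on a log axis, with a point per mouse (orange, ZT8; blue, ZT20) and a bar at the mean of 3 mice. The times are apart for all genes but *Per2* and *Cry2*, whose points overlap, and *Npas2* lies under 3 counts in each ZT8 liver.

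The RORE-binding factors moved in opposite directions. *Nr1d1*, on chromosome 11 (98767932 to 98775333), stood at 129, 96.2 and 75.3 CPM at ZT8 and 2.28, 1.86 and 2.15 CPM at ZT20 (log2 fold change −5.58 ± 0.25, adjusted p = 8.2e-08). Its paralogue *Nr1d2* fell from 127, 137 and 151 CPM to 11.6, 11.5 and 14.2 CPM (log2 fold change −3.47 ± 0.24, adjusted p = 4.3e-06). For both repressors the lowest ZT8 liver lay far above the highest ZT20 liver. *Rora*, an activator of the same element, rose by 0.66 on the log2 scale, from 69.4, 74.3 and 85.6 to 113, 129 and 119.7 CPM (adjusted p = 0.00033). *Rorb* had too few reads for a test. *Nr1d1* overlaps a gene on the other strand, and reads were counted without regard to strand.

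Among the repressors and modulators of the clock, 1 of 12 tested members was called higher at ZT20 and 4 were called higher at ZT8 (median log2 fold change −0.23). *Cry1*, a repressor of BMAL1 and CLOCK, was the member higher at ZT20, with 7.68, 6.83 and 4.98 CPM at ZT8 and 69.7, 65.2 and 59.8 CPM at ZT20 (log2 fold change 3.31 ± 0.13, adjusted p = 1.3e-10). *Per3* and *Per1* were higher at ZT8: *Per3* was at 82.5, 89.3 and 103 CPM at ZT8 and 18.0, 19.0 and 17.5 at ZT20 (log2 fold change −2.34 ± 0.20, adjusted p = 1.5e-05). *Per1* was at 63.0, 76.8 and 83.0 and 24.0, 29.2 and 46.3 (−1.16 ± 0.27, adjusted p = 0.012). The spread of *Per1* between the ZT20 livers was wide, but the groups did not overlap. Leaving out ZT8 mice 2 and 3 gave a log2 fold change of −0.93 for *Per1*. *Gm129*, the older symbol of the repressor *Ciart* (Chrono), was at 31.0, 31.8 and 36.3 CPM at ZT8 and 1.67, 1.64 and 1.52 CPM at ZT20 (log2 fold change −4.35 ± 0.16, adjusted p = 5.7e-11). *Bhlhe41* (DEC2) was at 18.4, 15.0 and 14.6 CPM at ZT8 and at 2.09, 2.03 and 1.66 at ZT20, a log2 fold change of −3.06 ± 0.14, adjusted p = 5.7e-10. *Per2* (0.19, adjusted p = 0.44), *Cry2* (−0.048, adjusted p = 0.70) and *Bhlhe40* (−0.42, adjusted p = 0.20) did not pass the test at these times. The kinase genes *Csnk1d* and *Csnk1e*, whose products act on the PER proteins, gave log2 fold changes of 0.12 and 0.079 (adjusted p = 0.19 and 0.66).

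All 4 D-box factors were called, and their directions were opposed (median log2 fold change −1.02). The activators *Dbp*, *Tef* and *Hlf* were higher at ZT8 and the repressor *Nfil3* (E4BP4) was higher at ZT20. *Dbp* was at 129, 132 and 119.7 CPM at ZT8 and 2.19, 2.52 and 2.46 CPM at ZT20, a log2 fold change of −5.73 ± 0.18, adjusted p = 2.1e-10. *Tef* fell by 1.51 and *Hlf* by 0.52 on the log2 scale, from 361, 352 and 365 to 119.5, 125 and 133 CPM and from 95.1, 89.7 and 94.0 to 68.6, 66.7 and 58.7 CPM. *Nfil3* was at 12.9, 12.0 and 11.4 CPM at ZT8 and 54.8, 54.1 and 60.8 CPM at ZT20 (2.22 ± 0.07, adjusted p = 2.9e-11). The times did not overlap for any of these factors.

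The promoters of 4 of these genes are shown because they carry clock elements beside opposite changes, *Arntl* and *Nfil3* being higher at ZT20 and *Gm129* and *Per1* higher at ZT8. Each window spans a transcript start in RefSeq (GRCm38.p6) and is printed 5′ to 3′ on the strand of the gene. Capitals mark matches, on either strand, to the RORE (ANTNGGTCA), the E-box (CACGTG) or the D-box (TTATGNAA), and none of these matches overlap. In the RefSeq table, 2.24% of the 32851 promoter windows hold this RORE, 7.15% the E-box and 3.38% the D-box. Among the 13529 windows of tested genes the shares were 1.86%, 9.65% and 2.22%. A match is a description of the letters, not evidence of binding.
*Arntl*, chr7:113207261-113207560, plus strand: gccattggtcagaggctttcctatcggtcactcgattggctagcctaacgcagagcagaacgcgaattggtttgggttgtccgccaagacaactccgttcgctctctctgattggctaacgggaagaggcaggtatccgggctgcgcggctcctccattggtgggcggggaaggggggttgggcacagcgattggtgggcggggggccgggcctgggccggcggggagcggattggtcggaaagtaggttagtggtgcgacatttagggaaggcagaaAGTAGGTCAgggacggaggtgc
*Nfil3*, chr13:52980990-52981289, minus strand: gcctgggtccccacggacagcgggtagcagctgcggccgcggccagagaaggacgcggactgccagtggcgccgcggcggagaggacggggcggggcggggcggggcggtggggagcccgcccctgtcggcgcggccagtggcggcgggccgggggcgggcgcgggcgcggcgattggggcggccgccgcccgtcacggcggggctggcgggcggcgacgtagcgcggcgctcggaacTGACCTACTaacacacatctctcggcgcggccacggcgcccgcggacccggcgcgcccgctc
*Gm129*, chr3:95882179-95882478, minus strand: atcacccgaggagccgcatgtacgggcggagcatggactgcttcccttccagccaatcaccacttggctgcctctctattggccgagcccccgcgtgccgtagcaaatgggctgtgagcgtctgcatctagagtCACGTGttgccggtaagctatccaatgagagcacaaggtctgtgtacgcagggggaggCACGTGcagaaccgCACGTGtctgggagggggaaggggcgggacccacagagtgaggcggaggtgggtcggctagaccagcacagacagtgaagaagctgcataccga
*Per1*, chr11:69098699-69098998, plus strand: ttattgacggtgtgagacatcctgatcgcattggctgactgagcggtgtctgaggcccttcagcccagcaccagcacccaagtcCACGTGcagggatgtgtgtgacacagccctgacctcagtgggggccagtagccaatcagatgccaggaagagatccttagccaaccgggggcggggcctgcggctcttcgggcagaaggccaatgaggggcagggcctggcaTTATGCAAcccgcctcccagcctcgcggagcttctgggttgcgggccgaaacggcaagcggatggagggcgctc
The RORE of *Arntl* reads on the plus strand and that of *Nfil3* on the other strand, and the *Gm129* window holds the E-box 3 times. A further RefSeq start of *Arntl* and one of *Per1* had none of these letters in their windows. The 4 windows were picked and do not stand for all called clock genes. *Cry1*, higher at ZT20, also holds an E-box, so that the E-box did not go with ZT8 alone. The windows of *Npas2*, *Clock* and *Rora* (higher at ZT20) and of *Nr1d1*, *Nr1d2* and *Dbp* (higher at ZT8) hold none of these elements. Promoter windows could be matched to only 72.8% of the tested genes. Among these windows the RORE was in 2.49% for genes higher at ZT20, 1.54% for genes higher at ZT8 and 1.81% for genes not called. For the E-box the shares were 9.91%, 11.1% and 9.29%, and for the D-box 2.9%, 2.84% and 1.94%. Differences between these shares were not tested.

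**Figure D2:**
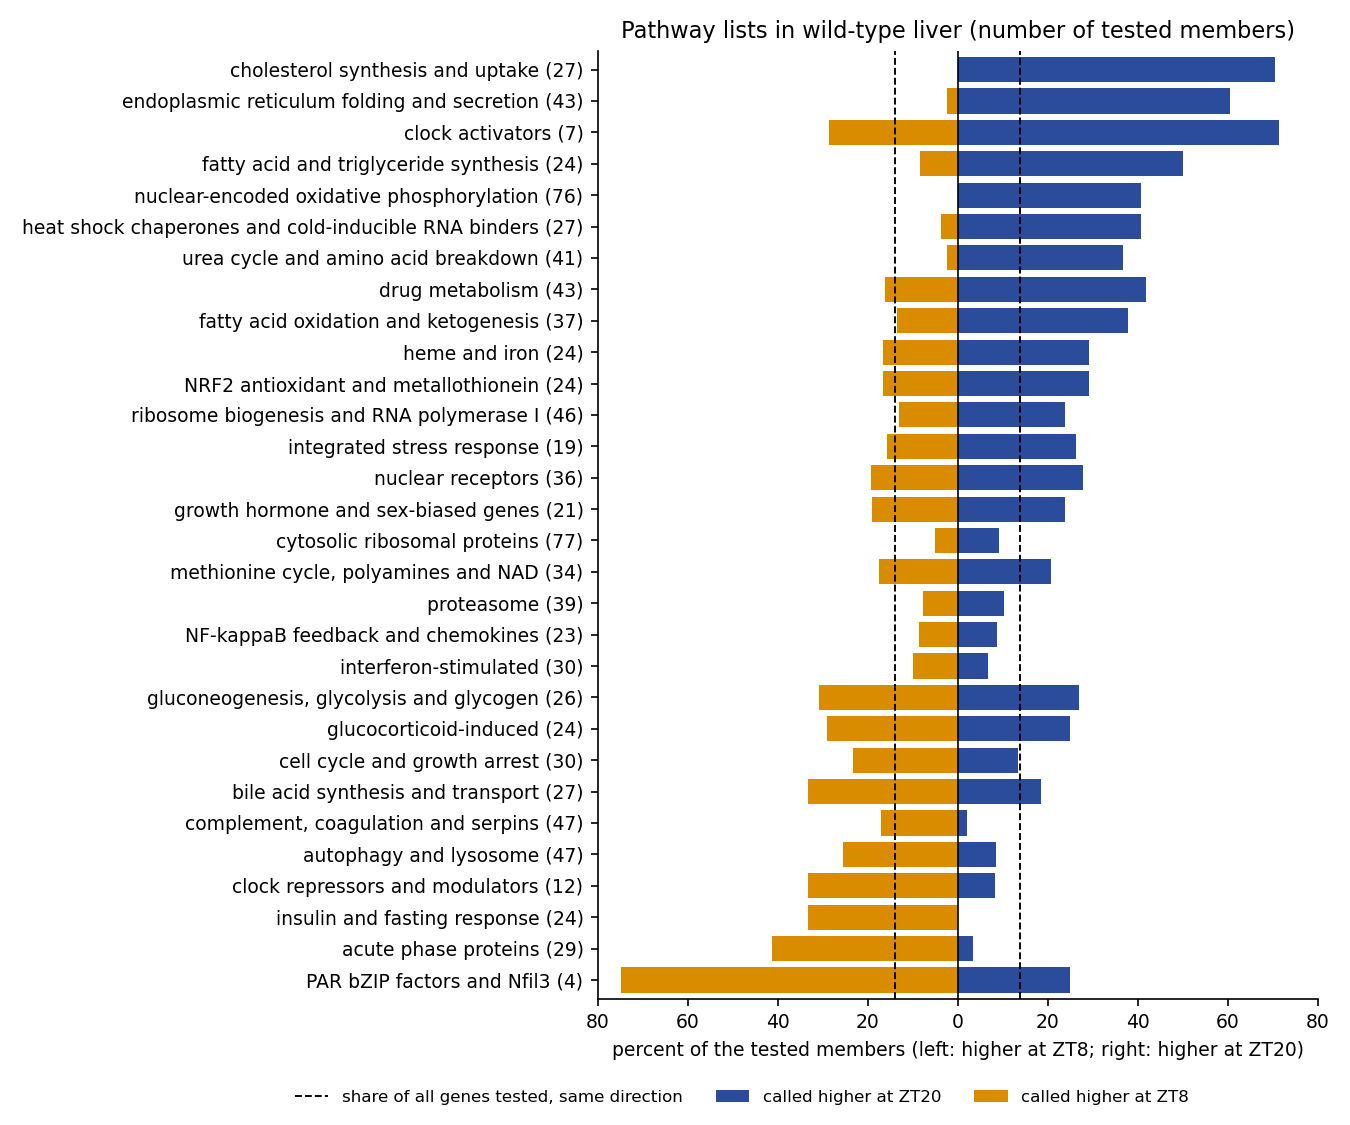
Share of the tested members of each pathway list (number in brackets) called higher at ZT20 (blue, to the right) and at ZT8 (orange, to the left). Dashed lines mark the shares of all genes tested, 13.8% and 13.9%; the lists of cholesterol synthesis, folding in the endoplasmic reticulum and fatty acid synthesis reach farthest to the right among lists of over 20 members, and acute phase proteins farthest to the left.

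Of the genes for cholesterol synthesis and uptake, 19 of 27 tested members (70.4%) were called higher at ZT20 and 0 (0%) at ZT8 (median log2 fold change 0.81), against 13.8% and 13.9% of all genes. The shares of every list below are to be read beside these shares of all genes. *Pmvk* (phosphomevalonate kinase) was at 42.9, 37.5 and 30.8 CPM at ZT8 and 206, 171 and 143 CPM at ZT20 (log2 fold change 2.22 ± 0.16, adjusted p = 8.1e-07). *Mvd*, the next enzyme of the mevalonate pathway, was at 19.3, 16.7 and 10.7 CPM and 85.9, 62.8 and 47.4 CPM (2.06 ± 0.26, adjusted p = 0.00033). *Lss*, which makes lanosterol, rose by 1.58 on the log2 scale (83.6, 74.2 and 63.4 to 273, 229 and 161 CPM). *Insig2*, whose product holds the sterol sensor SCAP in the endoplasmic reticulum, was at 79.9, 65.4 and 55.2 CPM at ZT8 and 349, 356 and 359 CPM at ZT20 (2.41 ± 0.16, adjusted p = 2.0e-07). In all of these genes the highest ZT8 liver was below the lowest ZT20 liver. The number was 11 without ZT8 mice 2 and 3.

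Of the genes for fatty acid and triglyceride synthesis, 12 of 24 tested members (50%) were called higher at ZT20 and 2 (8.33%) at ZT8 (median log2 fold change 0.76). *Scd1*, the stearoyl-CoA desaturase, was among the genes with the largest gain in reads, with 3255, 2198 and 1043 CPM at ZT8 and 15364, 13583 and 8979.6 CPM at ZT20 (log2 fold change 2.55 ± 0.48, adjusted p = 0.0039). *Acacb*, one of the acetyl-CoA carboxylases, rose from 61.1, 69.5 and 57.2 to 459.8, 368 and 306 CPM (2.59 ± 0.24, adjusted p = 3.4e-05), and the elongase *Elovl3* from 79.1, 63.8 and 49.9 to 869, 714 and 541 CPM (3.46 ± 0.20, adjusted p = 1.8e-07). *Pnpla3*, a lipid droplet protein, was under 1 CPM in all ZT8 livers and at 29.8, 21.2 and 7.34 CPM at ZT20 (4.72 ± 0.67, adjusted p = 0.00090). In each of these genes ZT20 mouse 3 was the lowest of the ZT20 livers and still above every ZT8 liver. The members called higher at ZT8 were *Lpin1*, a phosphatidate phosphatase, and *Dgat2*, which adds the last fatty acid to a triglyceride: *Lpin1* was at 218, 349 and 424 CPM at ZT8 and 155, 135 and 102 CPM at ZT20 (−1.34 ± 0.28, adjusted p = 0.0073). *Dgat2* fell by 0.44 on the log2 scale (adjusted p = 0.0042). When ZT8 mice 2 and 3 were left out, 9 members were called higher at ZT20 and none higher at ZT8.

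**Figure D3:**
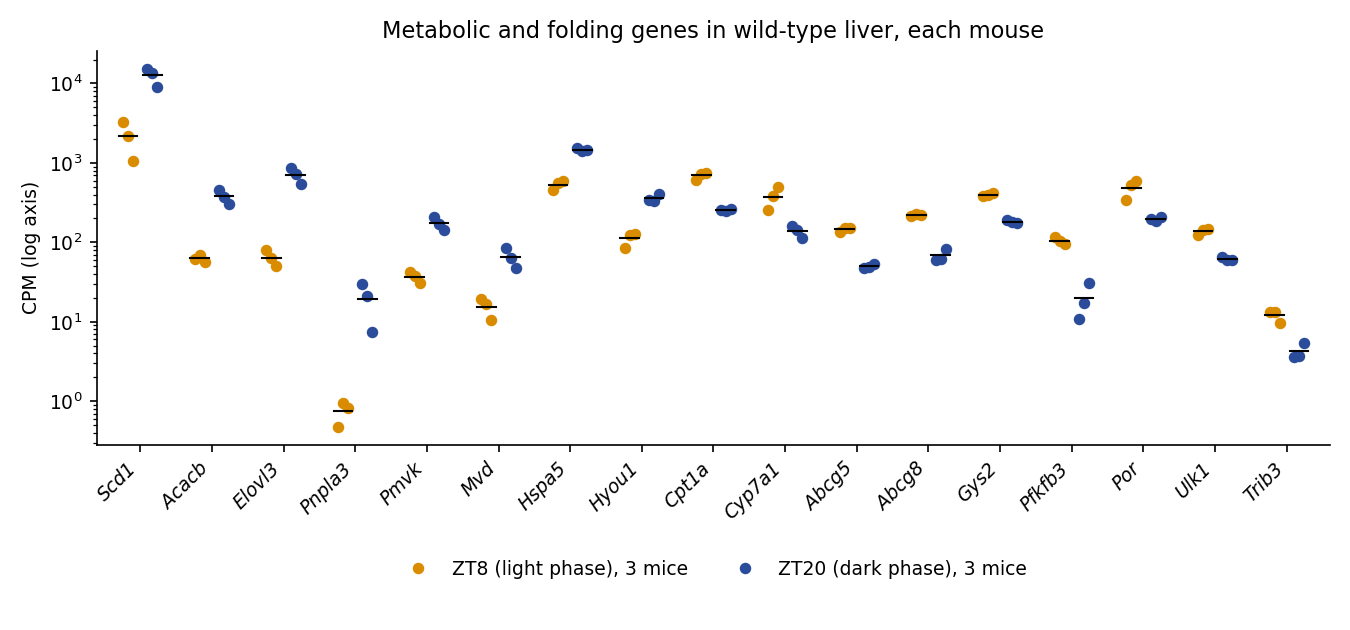
Values of metabolic and protein folding genes in the 6 wild-type livers, in CPM on a log axis, with a point per mouse (orange, ZT8; blue, ZT20) and a bar at the mean of 3 mice. The genes from *Scd1* to *Hyou1* are higher at ZT20 and those from *Cpt1a* to *Trib3* are higher at ZT8, without overlap of the times.

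Of the chaperones and folding enzymes of the endoplasmic reticulum, 26 of 43 tested members (60.5%) were called higher at ZT20 and 1 (2.33%) at ZT8 (median log2 fold change 0.49). *Hspa5* (BiP), the main chaperone of the compartment, was at 451, 552 and 597 CPM at ZT8 and 1531, 1432 and 1434 CPM at ZT20 (log2 fold change 1.46 ± 0.17, adjusted p = 2.0e-05). *Hyou1*, its exchange factor, rose by 1.68 and *Manf*, a secreted folding factor, by 1.58 on the log2 scale (86.0, 124 and 127 to 341, 330.1 and 406 CPM and 29.5, 49.8 and 52.8 to 125, 141 and 127 CPM). The member called higher at ZT8 was *Ern1*, the stress sensor IRE1α (−0.24, adjusted p = 0.034), whose call was lost without ZT8 mouse 2 or 3 or ZT20 mouse 1 or 2 (adjusted p 0.082 to 0.18). Leaving out ZT8 mice 2 and 3 left 20 members called higher at ZT20. Of the heat shock chaperones and cold-inducible RNA binders, 11 of 27 tested members (40.7%) were called higher at ZT20 and 1 (3.7%) at ZT8 (median log2 fold change 0.28). *Hsp90aa1* was at 28.5, 31.1 and 34.7 CPM at ZT8 and 64.2, 65.4 and 69.3 CPM at ZT20 (1.08 ± 0.16, adjusted p = 0.00050). *Hsph1*, *Fkbp4* and *Hspa4l*, which work with HSP90 or HSP70, rose by 1.03, 1.02 and 0.99 on the log2 scale. The cold-inducible *Rbm3* was the member higher at ZT8 (−0.41, adjusted p = 0.037), and its call was lost without any library but ZT8 mouse 1 (adjusted p 0.059 to 0.17).

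Of the nuclear-encoded genes of oxidative phosphorylation, 31 of 76 tested members (40.8%) were called higher at ZT20 and 0 (0%) at ZT8 (median log2 fold change 0.20), and 45 were not called. *Ndufs7* was at 52.1, 57.2 and 50.8 CPM at ZT8 and 77.6, 72.0 and 72.0 CPM at ZT20 (0.47 ± 0.07, adjusted p = 0.00014). *Ndufab1* and *Uqcrb* rose by 0.41 and 0.42 on the log2 scale. *Ndufa12* had the largest change, from 2.27, 2.99 and 1.78 to 9.95, 15.1 and 17.8 CPM (2.60 ± 0.42, adjusted p = 0.0013). With ZT8 mice 2 and 3 left out, 2 members were called. The summed hepatocyte markers were at 72700 to 93500 CPM at ZT8 and at 112000 to 123000 at ZT20, a sum of which *Alb* alone made up 52476, 38180.0 and 33751 and 77215, 70282 and 71818 CPM. Of these 10 markers 4 were called higher at ZT20, 1 (*Cyp2e1*) was called higher at ZT8 and 5 were not called, with a median log2 fold change of 0.12, and their part in these changes was not tested.

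Of the drug metabolism genes, 18 of 43 tested members (41.9%) were called higher at ZT20 and 7 (16.3%) at ZT8 (median log2 fold change 0.33). The share at ZT8 was near the 13.9% of all genes. *Ces1d*, a carboxylesterase, was at 418, 281 and 219 CPM at ZT8 and 1188, 1151 and 1295 CPM at ZT20 (1.99 ± 0.25, adjusted p = 0.00021). *Cyp3a11*, a major drug-metabolising cytochrome, was at 1992, 1185 and 915 and 3465, 3129 and 2967 CPM (1.22 ± 0.24, adjusted p = 0.0030). *Por*, the electron donor of all microsomal cytochromes P450, was higher at ZT8, with 339, 527 and 593 CPM at ZT8 and 195, 186 and 209 CPM at ZT20 (−1.31 ± 0.19, adjusted p = 0.00028). *Cyp2e1*, which oxidises ethanol, lost the most reads of this list from ZT8 to ZT20 (10497, 10080.0 and 10290.0 to 6469, 6448 and 6178 CPM, −0.69 on the log2 scale). *Cyp2a4* and *Cyp2a5*, near-identical genes of steroid and coumarin hydroxylation, moved in opposite directions: *Cyp2a4* was under 1 CPM in each ZT8 liver and at 109, 71.7 and 28.5 CPM at ZT20, and *Cyp2a5* fell from 1024, 844 and 744 to 426, 389 and 481 CPM. Reads that match both copies were not counted, so that this pair is uncertain.

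Of the urea cycle and amino acid breakdown genes, 15 of 41 tested members (36.6%) were called higher at ZT20 and 1 (2.44%) at ZT8 (median log2 fold change 0.15), and 25 were not called. *Cps1*, the entry enzyme of the urea cycle, was at 4134, 3744 and 3840.5 CPM at ZT8 and 8819.6, 6543 and 5409 CPM at ZT20 (0.83 ± 0.16, adjusted p = 0.0010). *Ddc* (aromatic amino acid decarboxylase) rose from 42.5, 38.4 and 31.7 to 153, 159.7 and 197 CPM (2.18 ± 0.12, adjusted p = 6.2e-09). *Hal*, which opens histidine breakdown, rose by 0.97 on the log2 scale. *Sds*, the serine dehydratase, was the member higher at ZT8 (82.3, 113 and 116 against 59.5, 49.2 and 64.3 CPM). Of the methionine cycle, polyamine and NAD genes, 7 of 34 tested members (20.6%) were called higher at ZT20 and 6 (17.6%) at ZT8 (median log2 fold change 0.090). *Ahcy*, which removes S-adenosylhomocysteine, was at 38.8, 37.2 and 39.9 and 193, 179 and 181 CPM (2.26 ± 0.10, adjusted p = 5.1e-10). *Gnmt*, which uses up S-adenosylmethionine, was higher at ZT20 as well (1177, 957 and 744 against 1765, 1609 and 1519.7 CPM).

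The list of bile acid synthesis and transport held more members higher in the light phase than in the dark phase. Of it, 5 of 27 tested members (18.5%) were called higher at ZT20 and 9 (33.3%) at ZT8 (median log2 fold change −0.033). *Abcg5* and *Abcg8*, which form the canalicular sterol exporter, were at 134, 151 and 150.4 and 214, 224 and 223 CPM at ZT8 and at 48.2, 48.9 and 53.1 and 60.1, 62.4 and 82.6 CPM at ZT20, log2 fold changes of −1.54 ± 0.08, adjusted p = 6.3e-09 and −1.69 ± 0.10, adjusted p = 2.2e-08. *Cyp7a1*, the rate-limiting enzyme of bile acid synthesis, was at 255, 383 and 493 CPM at ZT8 and 163, 143 and 113 CPM at ZT20 (−1.43 ± 0.43, adjusted p = 0.040). The times did not overlap, but the call for *Cyp7a1* was lost without any one of ZT8 mice 2 and 3 and ZT20 mice 1, 2 and 3 (log2 fold change −1.19 to −1.56, adjusted p 0.080 to 0.12). *Cyp7b1*, of the alternative pathway, fell by 0.91 on the log2 scale (743, 844 and 982 to 482, 444 and 439.6 CPM). *Cyp8b1*, which sets the share of cholic acid, went the other way (336, 239 and 178 to 548, 482 and 442 CPM, 0.97 ± 0.22, adjusted p = 0.0080), as did the canalicular bile salt pump *Abcb11* (0.48). With ZT8 mice 2 and 3 left out, the log2 fold changes were 0.54 for *Cyp8b1* and 0.32 for *Abcb11*.

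Of the fatty acid oxidation genes, 14 of 37 tested members (37.8%) were called higher at ZT20 and 5 (13.5%) at ZT8 (median log2 fold change 0.21). Over all genes the shares were 13.8% and 13.9%, so that the share at ZT8 was near that of all genes. The gatekeeper of mitochondrial oxidation, *Cpt1a*, was higher at ZT8, with 611, 719 and 754 CPM at ZT8 and 252, 248 and 266 CPM at ZT20 (−1.44 ± 0.12, adjusted p = 4.8e-07), as were the receptor gene *Ppara* (207, 222 and 240.0 against 114, 107 and 124 CPM), *Bdh1* of ketone body synthesis (−0.66) and *Eci2* (−0.75). *Pdk4*, which restrains pyruvate oxidation, was higher at ZT20, at 1.67, 1.84 and 2.54 CPM at ZT8 and 24.4, 25.6 and 21.4 CPM at ZT20 (3.57 ± 0.22, adjusted p = 2.0e-07), and so was the thioesterase *Acot1* (5.65, 3.59 and 2.39 against 18.2, 23.4 and 28.1 CPM). *Cyp4a14*, a fatty acid ω-hydroxylase with near-identical copies, rose from 0.756, 0.648 and 0.356 to 10.3, 15.4 and 40.6 CPM (5.19 ± 1.40, adjusted p = 0.026), and the call was lost without any of 4 libraries (ZT8 mouse 1, 2 or 3 or ZT20 mouse 3; log2 fold change 4.40 to 5.43, adjusted p 0.066 to 0.088).

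Of the genes for gluconeogenesis, glycolysis and glycogen, 7 of 26 tested members (26.9%) were called higher at ZT20 and 8 (30.8%) at ZT8 (median log2 fold change 0.10). *Gys2*, the liver glycogen synthase, was higher at ZT8, with 381, 393 and 413 CPM at ZT8 and 189.9, 180.0 and 174 CPM at ZT20 (−1.12 ± 0.13, adjusted p = 1.7e-05). *Gyg*, the glycogen primer, fell with it by 0.71 on the log2 scale. Regulatory subunits that direct a phosphatase to glycogen went the other way: *Ppp1r3c* was at 74.8, 40.8 and 27.0 CPM at ZT8 and 264, 253 and 230.0 CPM at ZT20 (2.38 ± 0.31, adjusted p = 0.00056). *Ppp1r3b* was at 347, 198 and 99.0 and 807, 801 and 822 CPM (1.92 ± 0.35, adjusted p = 0.0036). *Pfkfb3*, which makes the activator of glycolysis fructose-2,6-bisphosphate, fell from 117, 103 and 94.3 to 11.0, 17.0 and 31.2 CPM (−2.41 ± 0.36, adjusted p = 0.0013). *Pck1*, the gluconeogenic enzyme PEPCK, was at 1909, 3093 and 3578 CPM at ZT8 and 375, 791 and 1664 CPM at ZT20 (−1.60 ± 0.47, adjusted p = 0.033). Its call was lost without ZT8 mouse 2 or 3 or ZT20 mouse 2 (log2 fold change −1.41 to −1.54, adjusted p 0.084 to 0.11). *G6pc*, the glucose-6-phosphatase, rose from 159, 195 and 179.6 to 320.1, 334 and 420.2 CPM (1.01), a call that was lost without ZT8 mouse 1 (log2 fold change 0.92, adjusted p = 0.053).

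Of the insulin and fasting response genes, 0 of 24 tested members (0%) were called higher at ZT20 and 8 (33.3%) at ZT8 (median log2 fold change −0.11). The insulin receptor gene *Insr* was at 217, 225 and 261 CPM at ZT8 and 139, 153 and 173 CPM at ZT20 (−0.60 ± 0.09, adjusted p = 0.00026). *Akt1* fell by 0.68 on the log2 scale, and its log2 fold change was −0.22 when ZT8 mice 2 and 3 were left out. *Trib3*, an inhibitor of AKT, was at 13.2, 13.3 and 9.56 CPM at ZT8 and 3.58, 3.72 and 5.46 CPM at ZT20 (adjusted p = 1.8e-05). Of the autophagy and lysosome genes, 4 of 47 tested members (8.51%) were called higher at ZT20 and 12 (25.5%) at ZT8 (median log2 fold change −0.040), and 31 were not called. *Ulk1*, the kinase that starts autophagy, was at 125, 144 and 148 CPM at ZT8 and 64.6, 60.5 and 59.6 CPM at ZT20 (−1.17 ± 0.10, adjusted p = 6.2e-07). *Gabarapl1*, *Wipi1* and the cholesterol transporter *Npc1* fell by 0.81, 0.84 and 1.09 on the log2 scale. *Lipa*, the lysosomal acid lipase, was at 195, 174 and 166 CPM at ZT8 and 372, 384 and 369 at ZT20 (1.07 ± 0.08, adjusted p = 1.5e-07), opposite to most called members. In the proteasome list, 4 of 39 tested members (10.3%) were called higher at ZT20 and 3 (7.69%) at ZT8 (median log2 fold change −0.0017). The 3 members higher at ZT8 were *Psmb8*, *Psmb9* and *Psmb10*, the catalytic subunits of the immunoproteasome (−0.81, −0.59 and −0.65 on the log2 scale), and the standard subunit *Psmb5* was higher at ZT20 (0.66). When ZT8 mice 2 and 3 were left out, *Psmb5* gave 0.35.

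Genes that glucocorticoids induce, fixed as a list because the study follows the glucocorticoid receptor, showed no common direction: 6 of 24 tested members (25%) were called higher at ZT20 and 7 (29.2%) at ZT8 (median log2 fold change −0.15). *Tsc22d3* (GILZ) was at 139, 109 and 113 CPM at ZT8 and 197, 229 and 253 CPM at ZT20 (0.91 ± 0.11, adjusted p = 2.1e-05). *Tat*, tyrosine aminotransferase, rose by 0.53 on the log2 scale. The largest rise was that of *Cdkn1a* (p21), a brake of the cell cycle, at 2.83, 2.69 and 1.93 CPM at ZT8 and 40.0, 47.7 and 56.6 CPM at ZT20 (4.26 ± 0.24, adjusted p = 4.6e-07). The largest fall was that of the metallothionein gene *Mt2* (−8.1), which was far higher in ZT8 mice 2 and 3 than in mouse 1. Without those 2 mice its log2 fold change was −1.98. The receptor gene itself, *Nr3c1*, was at 123, 126 and 142 CPM at ZT8 and 126, 124 and 127 CPM at ZT20 (−0.051 ± 0.08, adjusted p = 0.70). *Nfkbia* was at 38.4, 38.8 and 37.1 and 28.0, 29.5 and 38.7 CPM (−0.25 ± 0.10, adjusted p = 0.079), so that neither passed the test. *Nfkbia* passed without ZT20 mouse 3 (log2 fold change −0.42, adjusted p = 0.0016). *Adh1* gave −0.038 (adjusted p = 0.81), with 3 values at each time between 1354 and 1452 CPM. Among cell cycle and growth arrest genes, 4 of 30 tested members (13.3%) were called higher at ZT20 and 7 (23.3%) at ZT8 (median log2 fold change −0.14). The share at ZT20 was near the 13.8% of all genes. *Ccne1* (cyclin E1) and *Mcm6*, of the DNA helicase, were higher at ZT8 (3.14, 5.28 and 7.27 against 0.698, 0.752 and 0.671 CPM, and 8.79, 6.63 and 6.05 against 0.977, 0.929 and 1.92 CPM), and the antiproliferative gene *Btg1* was higher at ZT20 (22.9, 19.6 and 18.8 against 65.1, 74.5 and 85.9 CPM).

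Nuclear receptors were called in both directions: 10 of 36 tested members (27.8%) were called higher at ZT20 and 7 (19.4%) at ZT8 (median log2 fold change 0.070). *Ppard* was at 7.80, 8.77 and 9.20 CPM at ZT8 and 73.4, 60.7 and 46.6 CPM at ZT20 (2.81 ± 0.15, adjusted p = 3.3e-08) and rose while *Ppara* fell. *Nr3c2*, the mineralocorticoid receptor, fell by 0.92 on the log2 scale. Of the growth hormone and sex-biased genes, 5 of 21 tested members (23.8%) were called higher at ZT20 and 4 (19%) at ZT8 (median log2 fold change 0.040), among them *Stat5a* (9.79, 10.7 and 12.0 against 21.0, 19.5 and 20.7 CPM) and the steroid dehydrogenase *Hsd3b5* (429, 387 and 382 against 204, 212 and 227 CPM). Of the heme and iron genes, 7 of 24 tested members (29.2%) were called higher at ZT20 and 4 (16.7%) at ZT8 (median log2 fold change 0.16). *Hfe2* (hemojuvelin) was at 62.8, 59.6 and 55.0 CPM at ZT8 and 116, 116 and 115 CPM at ZT20 (0.96 ± 0.07, adjusted p = 8.1e-08). The transferrin receptor *Tfrc* was at 25.8, 22.0 and 16.2 and 60.5, 52.0 and 37.9 CPM (1.23 ± 0.23, adjusted p = 0.0032). *Alas1*, the first enzyme of heme synthesis, was at 229.8, 708 and 924 CPM at ZT8 and 128, 106 and 98.3 CPM at ZT20 (−2.48 ± 0.59, adjusted p = 0.015), and mouse 1 at ZT8 stood well below mice 2 and 3. Its call was lost without ZT20 mouse 2 or 3 (log2 fold change −2.45 and −2.42, adjusted p = 0.055 and 0.051). With ZT8 mice 2 and 3 left out, the log2 fold changes were −1.06 for *Alas1* and 0.95 for *Tfrc*.

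Of the ribosome biogenesis genes, 11 of 46 tested members (23.9%) were called higher at ZT20 and 6 (13%) at ZT8 (median log2 fold change 0.11), *Nop16* among the former (21.1, 20.6 and 22.9 against 37.5, 38.2 and 37.8 CPM, 0.82 ± 0.08, adjusted p = 5.1e-06). The share at ZT8 was near the 13.9% of all genes. Of the cytosolic ribosomal proteins, 7 of 77 tested members (9.09%) were called higher at ZT20 and 4 (5.19%) at ZT8 (median log2 fold change 0.070), both shares under those of all genes. Of the integrated stress response genes, 5 of 19 tested members (26.3%) were called higher at ZT20 and 3 (15.8%) at ZT8 (median log2 fold change −0.10). *Atf5* rose by 1.01 on the log2 scale, and *Asns*, asparagine synthetase, was at 18.4, 44.8 and 46.3 CPM at ZT8 and 1.02, 1.42 and 2.55 CPM at ZT20 (−4.44 ± 0.46, adjusted p = 0.00015). Of the NRF2 and metallothionein genes, 7 of 24 tested members (29.2%) were called higher at ZT20 and 4 (16.7%) at ZT8 (median log2 fold change 0.13), and *G6pdx* and *Pgd*, which make NADPH, rose by 1.33 and 1.02. The shares called were below those of all genes among NF-κB feedback and chemokine genes, where 2 of 23 tested members (8.7%) were called higher at ZT20 and 2 (8.7%) at ZT8 (median log2 fold change −0.085), and below those of all genes among interferon-stimulated genes too, where 2 of 30 tested members (6.67%) were called higher at ZT20 and 3 (10%) at ZT8 (median log2 fold change 0.11). *Oasl1* stood out of the latter, with 3.14, 2.44 and 1.93 CPM at ZT8 and 19.1, 16.5 and 14.8 at ZT20 (2.72 ± 0.36, adjusted p = 0.00033).

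Of the acute phase proteins, which the liver secretes in inflammation, 1 of 29 tested members (3.45%) were called higher at ZT20 and 12 (41.4%) at ZT8 (median log2 fold change −0.49). *Saa1* (serum amyloid A1) was at 60.8, 4972 and 6489 CPM at ZT8 and 96.8, 73.2 and 36.5 CPM at ZT20 (−5.80 ± 1.37, adjusted p = 0.015). *Saa2* was at 13.6, 4849 and 6137 and 17.2, 10.9 and 6.89 CPM (−8.30 ± 1.82, adjusted p = 0.010). *Lcn2* (lipocalin 2) was at 3.30, 307 and 393 CPM at ZT8 and 6.88, 5.57 and 2.64 CPM at ZT20 (−5.54 ± 1.36, adjusted p = 0.017). *Orm2* (orosomucoid 2) was at 9.51, 313 and 425 and 8.00, 7.17 and 8.36 CPM (−4.99 ± 1.11, adjusted p = 0.012). In ZT8 mouse 1, *Saa1* and *Lcn2* lay within the range of the ZT20 livers, and *Saa2* did too. Haptoglobin (*Hp*, 1944, 6316 and 7985 CPM at ZT8) and hemopexin (*Hpx*, 3074, 7579.5 and 9962 CPM) were at 2448, 2143 and 2384 and 3619, 3150.1 and 3289.8 CPM at ZT20, so that mouse 1 lay below all ZT20 livers and mice 2 and 3 above them. Without ZT8 mice 2 and 3, none of the list was called higher at ZT8, and the log2 fold changes were 0.17 for *Saa1*, 0.60 for *Lcn2*, 0.25 for *Hp* and 0.12 for *Hpx*. Without mouse 1 the number rose from 12 to 18.

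**Figure D4:**
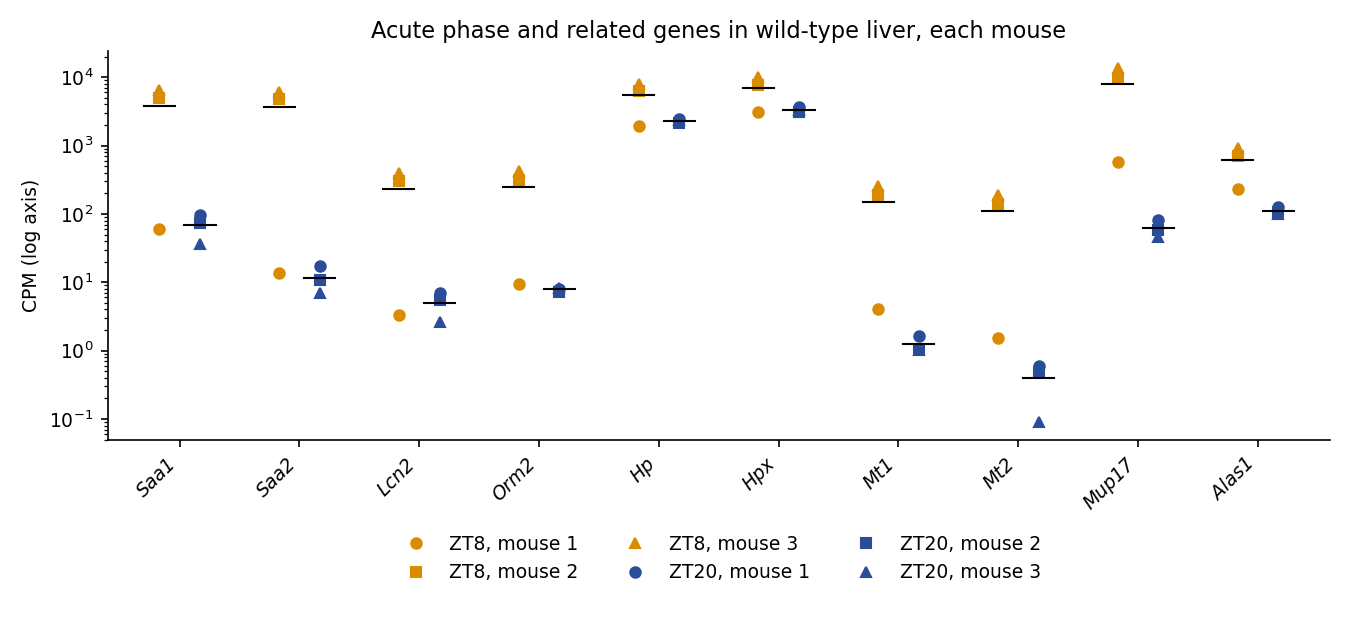
Values of 10 acute phase and related genes in the 6 wild-type livers, in CPM on a log axis, with a symbol for each mouse (orange, ZT8; blue, ZT20) and a bar at the mean of 3 mice. ZT8 mouse 1 is the lowest of the 3 ZT8 livers for all 10 genes, and lies within or below the range of the ZT20 livers for *Saa1*, *Saa2*, *Lcn2*, *Hp* and *Hpx*.

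Single libraries also decided calls of this kind. The call for *Saa1* was lost without ZT20 mouse 2 or 3 (log2 fold change −5.85 and −5.51, adjusted p = 0.058 and 0.053), that for *Lcn2* without any one of the ZT20 mice (−5.25 to −5.83, adjusted p 0.058 to 0.065), and those for *Hp* and *Hpx* without any library but ZT8 mouse 1 (adjusted p 0.094 to 0.17). The metallothionein genes, which bind zinc and copper, were likewise highest in ZT8 mice 2 and 3. *Mt1* was at 4.10, 186 and 258 CPM at ZT8 and 1.63, 1.06 and 1.03 CPM at ZT20 (−6.91 ± 1.53, adjusted p = 0.011). *Mt2* was at 1.55, 138 and 188 and 0.605, 0.487 and 0.0895 CPM (−8.10 ± 1.88, adjusted p = 0.014). Without ZT8 mice 2 and 3 they gave log2 fold changes of −1.73 and −1.98, neither of which passed the test, and the call for *Mt2* was also lost without any one ZT20 mouse (adjusted p 0.051 to 0.055). Of the complement, coagulation and serpin genes, 1 of 47 tested members (2.13%) were called higher at ZT20 and 8 (17%) at ZT8 (median log2 fold change −0.16), among them *Mbl2* (266, 345 and 355 against 204, 193 and 217 CPM). Of the Kupffer cell markers, 4 of 11 were called higher at ZT8, namely *Marco*, *Cd5l*, *Cd68* and *C1qb*, named after their values were seen. *Marco*, a scavenger receptor of macrophages, was at 1.59, 4.48 and 7.78 CPM at ZT8 and 0.279, 0.796 and 1.07 CPM at ZT20 (−2.65 ± 0.73, adjusted p = 0.024) and was higher in ZT8 mice 2 and 3 than in mouse 1. Its call was lost without ZT8 mouse 2 or 3 or ZT20 mouse 1 or 2 (adjusted p 0.057 to 0.084), as was that for *C1qb* (adjusted p 0.13 to 0.18). The part of these cells in the acute phase values was not tested.

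By size of change alone, the genes with the largest fold changes, no overlap and at least 5 CPM at the higher time included, at ZT20, *Chka*, choline kinase (18.8, 15.0 and 14.4 CPM at ZT8 and 205, 189.8 and 184 CPM at ZT20, 3.58 ± 0.10, adjusted p = 4.9e-12), the tubulin gene *Tubb2a* (14.8, 6.73 and 3.25 against 121, 90.9 and 90.6 CPM), *Pitx3* (0.0796, 0.249 and 0.203 against 6.61, 7.30 and 6.93 CPM) and *Chrna4*, a nicotinic receptor subunit (6.73, 4.38 and 1.63 against 81.0, 65.5 and 31.4 CPM). At ZT8 they included *Moxd1*, a monooxygenase (34.1, 271 and 351 against 0.512, 0.221 and 0.0447 CPM), and *Dct*, dopachrome tautomerase (26.6, 12.8 and 7.78 CPM), which had at most 1 read in a ZT20 liver and was thus at least 112-fold higher at ZT8. By difference in CPM, the gains at ZT20 were led by *Alb*, albumin (52476, 38180.0 and 33751 CPM at ZT8 and 77215, 70282 and 71818 CPM at ZT20, 0.82 ± 0.19, adjusted p = 0.0051), followed by *Scd1*, and the gains at ZT8 by *Mup17*, a major urinary protein (574, 9817 and 13443 against 82.0, 58.6 and 45.7 CPM), of which ZT8 mouse 1 had the least. With ZT8 mice 2 and 3 left out, the log2 fold changes were 0.47 for *Alb* and 1.95 for *Scd1*.

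Some genes stood apart in 1 of the 4 groups alone. In wild-type ZT20 livers, 11 genes lay more than 4-fold below every one of the 9 other libraries (all at 1 CPM or more), and 5 genes lay more than 4-fold above them. This count, set after the values were seen, was 5 and 0 for wild-type ZT8, 0 and 1 for knockout ZT8, and 4 and 0 for knockout ZT20. The genes low in wild-type ZT8 livers alone included *Arntl*, *Cdkn1a*, *Chka* and *Slc34a2*. Those low in wild-type ZT20 livers alone included the ribosomal protein gene *Rps3a1* and its copy *Rps3a2*, which is annotated as a processed pseudogene. *Zfp125*, annotated as an unprocessed pseudogene, *Asns* and *Mup11*, a major urinary protein, were also among them. *Rps3a1* was at 27.5, 28.3 and 28.2 CPM at ZT8 and 1.02, 0.840 and 0.939 CPM at ZT20 and at 23.0 to 31.6 CPM in the 6 knockout livers. *Rps3a2* and *Zfp125* had no reads in any ZT20 wild-type liver, which makes them at least 31.2-fold and 19.8-fold higher at ZT8, and they were at 4.02 to 5.42 and 1.59 to 3.14 CPM in the other 9 livers. *Mup11* was at 2.28 to 11.9 CPM in the ZT20 wild-type livers and at 1302 to 6409 in all others. *Cyp2a4* was the reverse, at 28.5 to 109 CPM there and at 0.506 to 2.27 elsewhere. Reads shared by near-identical copies are not counted, and time and any other difference between these 3 mice and the rest, their alleles included, cannot be told apart for such genes.

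Finally, the wild-type change was set beside the change from ZT8 to ZT20 in *Rev-erbα-/-* liver, which compares other libraries but was part of the same fit. In the knockout, 2530 genes (17.5%) were called between the times. Of the 4018 genes called in wild-type liver, 3260 (81.1%) had the same sign in the knockout, against 66.6% of all genes tested. In the knockout, 1417 of the 4018 (35.3%) were called in the direction of the wild-type change, against 15.2% of all genes tested. The median size of the change was 0.553 in wild-type and 0.284 in knockout liver on the log2 scale for these genes, which were chosen by their wild-type change. The time effects themselves differed, by the interaction of genotype and time, for 852 genes (5.88% of those tested), 692 of which were among the wild-type calls. Of these 692, the change had the same sign and was smaller in the knockout for 285, was larger for 17 and had the opposite sign for 390. An opposite sign is that of the knockout estimate, whether or not it was called. Of the 4018 wild-type calls, 86 were called in the opposite direction in the knockout. The number of called interactions fell to 509, 493, 548 and 516 without mouse 2 of wild-type ZT8, wild-type ZT20, knockout ZT8 or knockout ZT20, and the number of knockout calls to 1663 and 1566 without mouse 2 of ZT8 or of ZT20. Reads were assigned to the symbol *Nr1d1* in the knockout too (63.0, 71.9 and 80.6 CPM at ZT8, 3.57, 2.96 and 2.09 at ZT20), and counts per gene do not show whether the disrupted part was read. By quantitative PCR the study reported *Rev-erbα* mRNA to be absent from knockout liver.

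**Figure D5:**
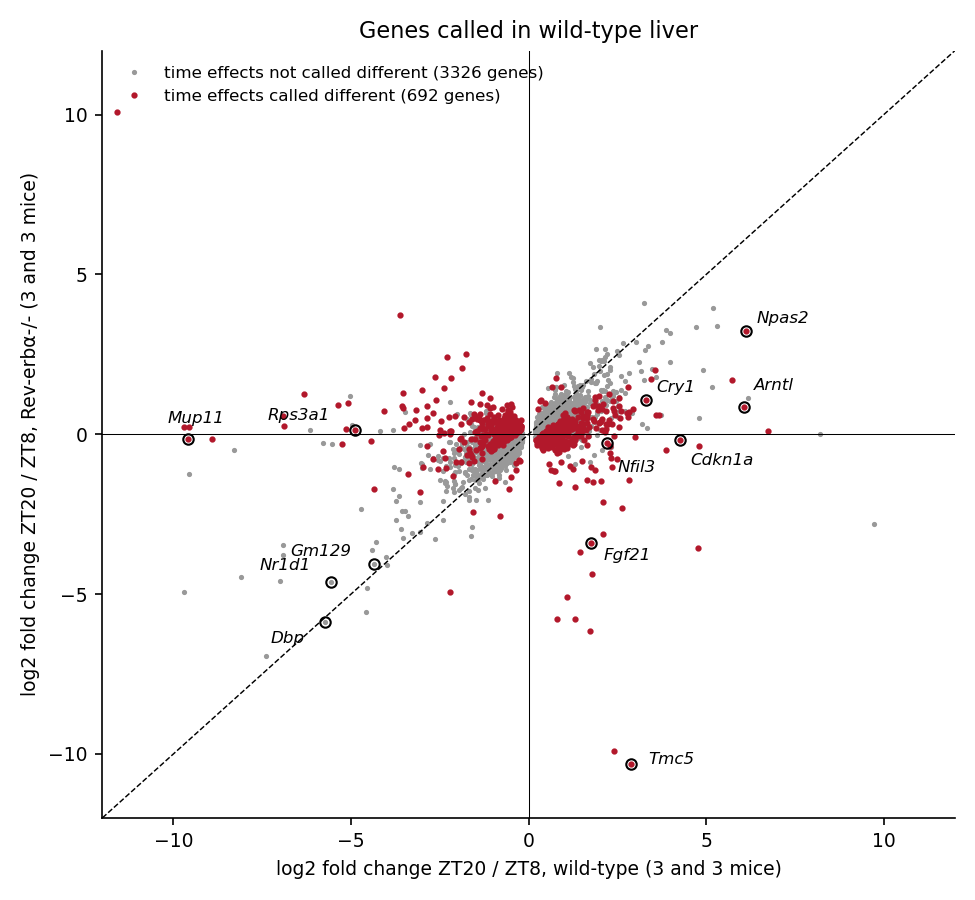
Log2 fold change from ZT8 to ZT20 in wild-type (x axis) and *Rev-erbα-/-* liver (y axis) for the 4018 genes called in wild-type liver, 1 point per gene, with the genes whose time effects differed by the interaction in red (692) and the others in grey. The dashed line marks equal changes; *Dbp*, *Gm129* and *Nr1d1* lie near it, while *Arntl* lies at 0.85 on the y axis, *Nfil3* at −0.26 and *Cdkn1a* at −0.17.

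Genes of the clock divided between these classes. The change of *Arntl* was 6.05 in wild-type and 0.85 in knockout liver on the log2 scale (interaction 5.20, adjusted p = 3.9e-11), where the knockout livers were at 24.3, 25.7 and 22.7 CPM at ZT8 and 45.1, 44.8 and 41.1 at ZT20. *Nfil3* was at 59.9, 60.1 and 58.5 CPM and 51.0, 48.6 and 49.4 CPM in the knockout, where it was called higher at ZT8, opposite to wild-type liver (log2 fold change −0.26, adjusted p = 0.016; interaction 2.48, adjusted p = 6.7e-10). *Clock* was at 81.3, 71.9 and 69.0 and 77.2, 68.8 and 67.4 (interaction 1.36, adjusted p = 5.0e-06). *Cry1* was at 26.2, 27.5 and 24.6 and 57.7, 57.3 and 49.4 (interaction 2.24, adjusted p = 1.1e-06). At ZT8 every knockout liver lay above every wild-type liver for these 4 genes. At ZT20 the genotypes overlapped for *Arntl* and *Clock*, and the knockout livers were the lower ones for *Nfil3* and *Cry1*. *Dbp* (−5.88 in the knockout), *Gm129* (−4.07), *Tef* (−1.42), *Bhlhe41* (−3.04) and *Per3* (−1.79) were called in the same direction in the knockout, and their interactions were not called. *Cdkn1a* was at 28.3, 32.4 and 42.6 CPM at ZT8 and 24.4, 30.3 and 36.9 at ZT20 in the knockout, a log2 fold change of −0.17 that was not called (interaction 4.44, adjusted p = 1.3e-05).

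Among the pathway lists, leaving aside those of the clock, the share of wild-type calls also called in the same direction in the knockout ran from 22 of 27 for folding in the endoplasmic reticulum to 1 of 31 for oxidative phosphorylation. It was 11 of 19 for cholesterol synthesis, 11 of 14 for fatty acid synthesis, 10 of 16 for autophagy and 1 of 13 for acute phase proteins. Over all wild-type calls it was 1417 of 4018 (35.3%). The median log2 fold change over all 76 tested genes of oxidative phosphorylation was 0.20 in wild-type and 0.013 in knockout liver, and 2 of the 31 called members had a called interaction. *Tmc5*, a membrane channel-like gene, was among the named genes with the largest interactions (1.35, 0.947 and 0.356 against 7.54, 7.21 and 5.73 CPM in wild-type, 5.61, 5.56 and 10.9 CPM in knockout at ZT8 and no reads in any of the 3 knockout livers at ZT20). *Fgf21*, a fasting hormone of the liver, rose in wild-type (0.597, 0.598 and 0.305 CPM at ZT8 and 2.37, 1.64 and 1.16 CPM at ZT20, 1.75 ± 0.37, adjusted p = 0.0023) and fell in knockout liver (3.53, 4.17 and 4.31 CPM at ZT8 to 0.210, 0.623 and 0.267 at ZT20; interaction 5.16, adjusted p = 2.0e-05).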

How the data were processed

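Poly(A) RNA of 12 mouse livers was sequenced on an Illumina HiSeq. The authors used TopHat for alignment to mm10 and HTSeq for counts per gene symbol, without regard to strand and with ambiguous reads left out, and deposited raw counts. The tool versions and the annotation release are not given in the sources used here. The 5 summary lines of each file were left out. Groups followed the genotype and time labels.

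All 12 libraries were fitted with edgeR 4.0.16 (R 4.3.3) with a mean for each of 4 groups, after filterByExpr and TMM scaling, by the robust quasi-likelihood test. Genes with a Benjamini-Hochberg adjusted p below 0.05 were called. Errors are SEs. Nothing in the labels says how the mice of a group are related, so that p-values measure the spread between these samples. CPM were computed with TMM library sizes, and the limit of 3 counts covers counting error only. On simulated data for this comparison the fit recovered 60% of 200 genes changed 1.5-fold (4 false calls, 14277 genes) and 97% of 200 changed 3-fold (9 false calls, 14280 genes). In the data 27.7% of genes were called, a far larger share than was changed in the simulation. The simulation also held no shift shared by some mice of a group, so that these rates need not hold for the data. Alternatives were DESeq2 1.42.0, its size factors, other filters, the wild-type samples alone, a replicate block, each library left out, and an adjusted p below 0.01.

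The genes named are all members of 3 clock lists; per direction the 12 with the largest fold change (no overlap of the times, at least 5 CPM at the higher time) and the 8 with the largest difference in CPM; up to 4 per pathway list and direction; 7 genes the study follows; and the 5 largest interactions, from which the text takes a part. Members and lists were chosen with earlier results of these data known. Promoter sequences are from RefSeq. Some genes that this rule selects are not reported here.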

Additional observations from a re-analysis of the deposited data

Results flagged for a closer look

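The change from ZT8 to ZT20 differed between wild-type and *Rev-erbα-/-* liver for 41 of the 137 tested genes named in the text. The test was that of the interaction of genotype and time (edgeR, adjusted p below 0.05, in a fit over 3 mice in each of 4 groups). Over all genes tested, 852 (5.88%) were called. Some named genes were chosen for a large interaction and others for a large wild-type change, so that the 2 shares are not alike. The values are wild-type minus knockout differences of the log2 change, so that a positive value is a greater rise, or a smaller fall, in wild-type liver. In the clock they were 5.20 for *Arntl*, 2.90 for *Npas2*, 2.48 for *Nfil3*, 2.24 for *Cry1* and 1.36 for *Clock*. All 5 were above 0.

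Among genes of lipid, sterol and energy metabolism the values were 1.72 for *Elovl3*, 1.68 for *Insig2*, 1.39 for *Cyp8b1*, 0.60 for *Abcb11*, −0.70 for *Abcg5*, −0.78 for *Abcg8*, 1.57 for *Pdk4*, −0.53 for *Eci2*, 0.55 for *Lipa*, 0.57 for *Ndufab1* and 2.98 for *Chka*. Among genes of amino acids, methyl groups and detoxification they were 1.81 for *Ahcy*, 2.00 for *Ddc*, −4.22 for *Asns*, 1.35 for *Atf5*, 5.16 for *Fgf21*, −0.65 for *Adh1* and 6.64 for *Cyp2a4*. Among receptors, signalling, iron and growth genes they were 1.33 for *Ppard*, −0.65 for *Nr3c2*, 1.22 for *Stat5a*, 0.97 for *Tsc22d3*, 1.46 for *Tfrc*, 0.36 for *Hfe2*, 4.44 for *Cdkn1a*, 0.71 for *Btg1*, −2.63 for *Mcm6*, 0.58 for *Nop16* and 1.05 for *Psmb5*.

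For the macrophage markers they were −4.43 for *Marco* and −0.88 for *Cd68*. The remaining values were −9.42 for *Mup11*, −5.03 for *Rps3a1*, −9.80 for *Rps3a2*, −8.77 for *Zfp125* and 13.22 for *Tmc5*. *Rps3a2* and *Zfp125* had no reads in wild-type ZT20 livers and *Tmc5* none in knockout ZT20 livers, so that the fitted values of these 3 genes depend on the prior count and are no bounds. With 3 mice in a group, single samples were not tested as outliers.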

How the results depend on the processing

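The number of genes called between ZT20 and ZT8 in wild-type liver stayed within 1.5 times of 4018 under DESeq2 (3947), size factors of DESeq2's kind (3994), no filter on low counts (3742), at least 10 counts in every sample (3803) and the 6 wild-type samples alone (3753), and the numbers higher at ZT20 and at ZT8 did as well. Leaving out a library gave 2865 to 4195 genes, of which 1457 to 1983 were higher at ZT20 and 1398 to 2212 higher at ZT8. Without ZT8 mice 2 and 3 together, an alternative chosen after seeing the data in which the lone ZT8 liver is assumed to vary like the other groups, 1795 genes were called (885 higher at ZT20, 910 higher at ZT8), 1633 of them among the 4018. With an adjusted p below 0.01 the numbers were 2343, 1176 and 1167. Fewer samples and the stricter threshold are part of these 2 settings. In the knockout, an adjusted p below 0.01 gave 1231 genes, and leaving out a library 1566 to 2202. For the interaction, an adjusted p below 0.01 gave 357 genes, the fit without ZT8 mice 2 and 3 gave 493, and DESeq2 gave 1104; leaving out a wild-type library gave 493 to 1260 genes and leaving out a knockout library, also chosen after seeing the data, 516 to 866. The cause was not tested. Deviations of same-numbered ZT8 and ZT20 mice were nearly uncorrelated across genes (correlations of 0.0172, −0.0217 and 0.0231). Whether same-numbered mice share a litter or a batch is not stated in the labels and was not tested. A replicate block gave 3889 genes (1943 higher at ZT20, 1946 at ZT8) in wild-type liver, 2399 in the knockout and 831 interactions. Of 1905 values of 137 named genes under all alternatives, 1774 kept direction and call, 122 lost the call, 1 gained it and 8 changed sign. Of the sign changes, *Cry2* and *Nr3c1*, neither of them called, changed without ZT8 mouse 3, with leave-one-out log2 fold changes of −0.097 to 0.0089 and −0.10 to 0.019. Without ZT8 mice 2 and 3 together the values were 0.025 for *Cry2*, 0.032 for *Nr3c1*, 0.25 for *Hp*, 0.12 for *Hpx*, 0.60 for *Lcn2* and 0.17 for *Saa1*. Depth limits genes under about 0.15 CPM, which 3 counts correspond to at most in a wild-type library (0.153).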
